A study of Homo sapiens with 8 samples.

Results

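Genes that write or erase methyl groups on histones, or that remodel chromatin, were taken from the peak list by name. Every row assigned to a KMT2 to KMT5, KDM1 to KDM8, SETD, ARID1 to ARID5, CHD1 to CHD9 or SMARC gene, or to EZH1, EZH2, EED, SUZ12, EP300, CREBBP or ATRX, was kept, and antisense names were left out. This gave 314 of the 42272 peaks of the list, under 73 of its 16701 gene names. Protein-coding genes made up 71 of the names and 311 of the peaks, with 110 peaks in 23 writers, 65 in 17 erasers and 136 in 31 remodellers. The other 3 peaks lay in the noncoding transcript KDM7A-DT and the pseudogene SMARCE1P6 and were given no role, and 1 row of KDM4A-AS1 was left out as antisense.

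The list came from m6A sequencing (MeRIP-seq) of U251, an established human glioblastoma cell line, in a study of the RNA-binding protein HNRNPC. The labels name 8 libraries in 4 groups of 2: cells transfected with siRNA against HNRNPC (si-HNRNPC) and cells transfected with a control siRNA (si-NC), each as input RNA and as a 48 h library of a kind that the labels leave unsaid. In MeRIP-seq, fragments of poly(A) RNA bound by an antibody against N6-methyladenosine (m6A) are compared with unselected input RNA, and a peak is a stretch of RNA that the antibody enriched. One table of peaks was analysed, with 1 value per peak and none per library. It does not name the transfection, so si-HNRNPC and si-NC cells were not compared, and replicate error and sequencing depth are unknown. For the same reason none of the differences below was tested over samples. Each of 8 genes used as markers of glioblastoma cells, among them GFAP, VIM, NES, SOX2 and EGFR, had at least 1 peak, which says nothing of its expression level.

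Histone methyltransferases, the writers, place methyl groups on lysines of the histone tails, and demethylases, the erasers, take them off, so that marks of active and silent chromatin can be changed. Remodellers use the energy of ATP to slide, eject or exchange nucleosomes. Genes of all these classes are frequently mutated in cancer, with ATRX and the Polycomb complex among those known from glioma. m6A is placed on nascent transcripts and is known to be dense near stop codons, in 3′-UTRs and in long internal exons.

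RefSeq lists 76 protein-coding genes that the naming rule takes, and 71 of them (93.4%) had a listed peak, against 12256 of all 20056 protein-coding genes (61.1%), matched by symbol. The list holds no expression level, and the part of expression in this difference was not tested. All 23 writers had one, as did 17 of 20 erasers and 31 of 33 remodellers. The 5 genes without a listed peak were the KDM4 family genes KDM4E and KDM4F, the H3K4 demethylase gene KDM5D, the ISWI ATPase gene SMARCA1 and ARID3C. The authors' false discovery rate (FDR) was under 0.001 in 236 of the 311 peaks (75.9%, 95% Wilson interval 70.8 to 80.3), against 62.0% of all peaks of the list. The share was 77.3% in writers, 76.9% in erasers and 74.3% in remodellers, so the roles lay within each other's intervals. At an FDR under 0.05 the share was 89.7% in these genes and 81.6% in the whole list. By gene, 64 of the 71 (90.1%) had at least 1 peak at an FDR under 0.001, against 76.7% of all genes in the list. Here and below, these protein-coding genes are set against all names of the list, noncoding ones included. Of its 16701 names, 12256 match a protein-coding gene in RefSeq, and the part of the other names in the differences was not tested. These intervals cover counting error only and treat peaks as independent, although peaks of 1 gene share a transcript.

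The 7 genes without such a peak included some of the best known members. EZH2, the main catalytic subunit of Polycomb repressive complex 2 (PRC2), had a single peak at the 5′-UTR with a fold enrichment of 2.90 that did not reach an FDR of 0.05. KDM1B, a flavin-dependent demethylase, had a single peak of 4.36-fold, and SMARCB1, a core subunit of SWI/SNF that is lost in rhabdoid tumours, had peaks of 3.54-fold and 1.89-fold. CHD5, a remodeller found mainly in neurons, had peaks of 8.71-fold, 6.54-fold and 6.54-fold. None of the peaks of these 4 genes reached an FDR of 0.05. SMARCD1, SMARCD3 and SMARCAL1 each had 1 peak between the 2 thresholds.

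These genes carried more peaks than most. The median was 4 peaks per gene (quartiles 2 and 6), against 2 over all genes with a peak (quartiles 1 and 3), and the mean was 4.38 against 2.53. Only 7 of the 71 genes (9.86%) had a single peak, against 38.5% of all genes, and 29 (40.8%) had 5 or more, against 12.6%. Peaks in all 3 annotated regions, the 5′-UTR, other exons and the 3′-UTR, were found in 24 genes (33.8%), against 9.78% of all genes. By role the median was 4 in writers, 3 in erasers and 4 in remodellers. The genes are also long: their median length in RefSeq was 70925 bases, against 27446 over the 85.3% of listed names found there, and the part of gene length in the number of peaks was not tested.

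**Figure D1:**
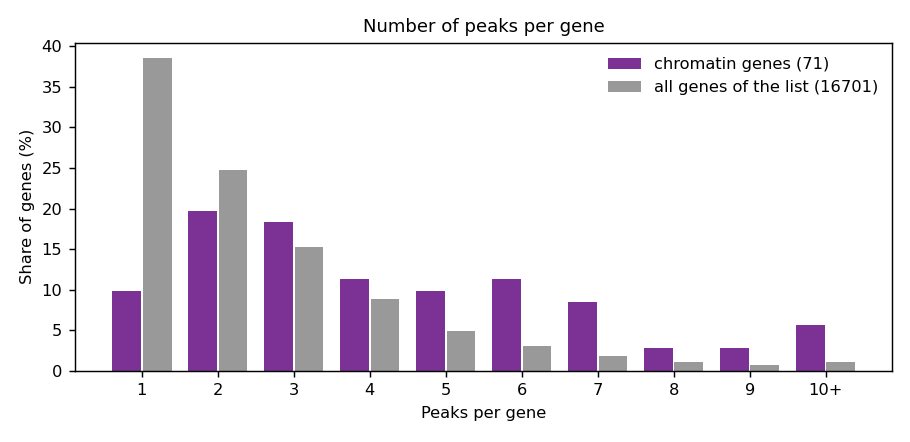
Share of genes (%) by the number of peaks they carry, for the 71 chromatin genes (purple) and all 16701 gene names of the list (grey), with 10 and more peaks in the last bar. The single-peak bar holds 9.86% of the chromatin genes and 38.5% of all genes.

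The leading gene by number was KMT2A, the H3K4 methyltransferase known as MLL, with 16 peaks, 14 of them at an FDR under 0.001. Several of its rows cover the same bases, and when rows that share exon bases were merged, 12 remained. KMT2C and KMT2D, which place H3K4 monomethylation at enhancers, had 10 each (9 and 10 after merging), and SETD2, the enzyme that trimethylates H3K36, had 9. Among remodellers ARID1B had 10 (7 after merging) and SMARCE1 had 9, of which 4 remained after merging. CHD4, the ATPase of the NuRD complex, had 8 rows and likewise 4 after merging. Among erasers KDM2B had 8 (6 after merging), and KDM4B, KDM5A and KDM8 had 7 each (7, 6 and 5 after merging). Merging reduced all 314 rows to 288 and left 285 for the protein-coding genes, and the 46 rows that share bases lay in 12 genes.

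The fold enrichment, the authors' ratio of immunoprecipitate to input, was moderate in most of these peaks and high in a few. Over peaks the median was 4.40 (quartiles 2.48 and 7.60), against 5.45 over all peaks (quartiles 2.75 and 8.71), and 12.2% of peaks reached 10-fold, against 19.5%. Taken by gene, with each gene at its highest fold, the median was 9.53 (quartiles 5.99 and 13.2), against 8.31 over all genes (quartiles 5.21 and 12.5). The part of the number of peaks per gene in this last difference was not tested. Writers, erasers and remodellers had medians of 10.5, 9.49 and 9.21 by highest fold, and of 9.20, 7.24 and 7.5 by the fold of the peak with the lowest p, against 7.03 over all genes on the latter scale. The values of the roles overlapped widely. Highest folds ranged from 2.11 to 27.2 in writers, from 4.36 to 20.7 in erasers and from 2.41 to 89.9 in remodellers.

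**Figure D2:**
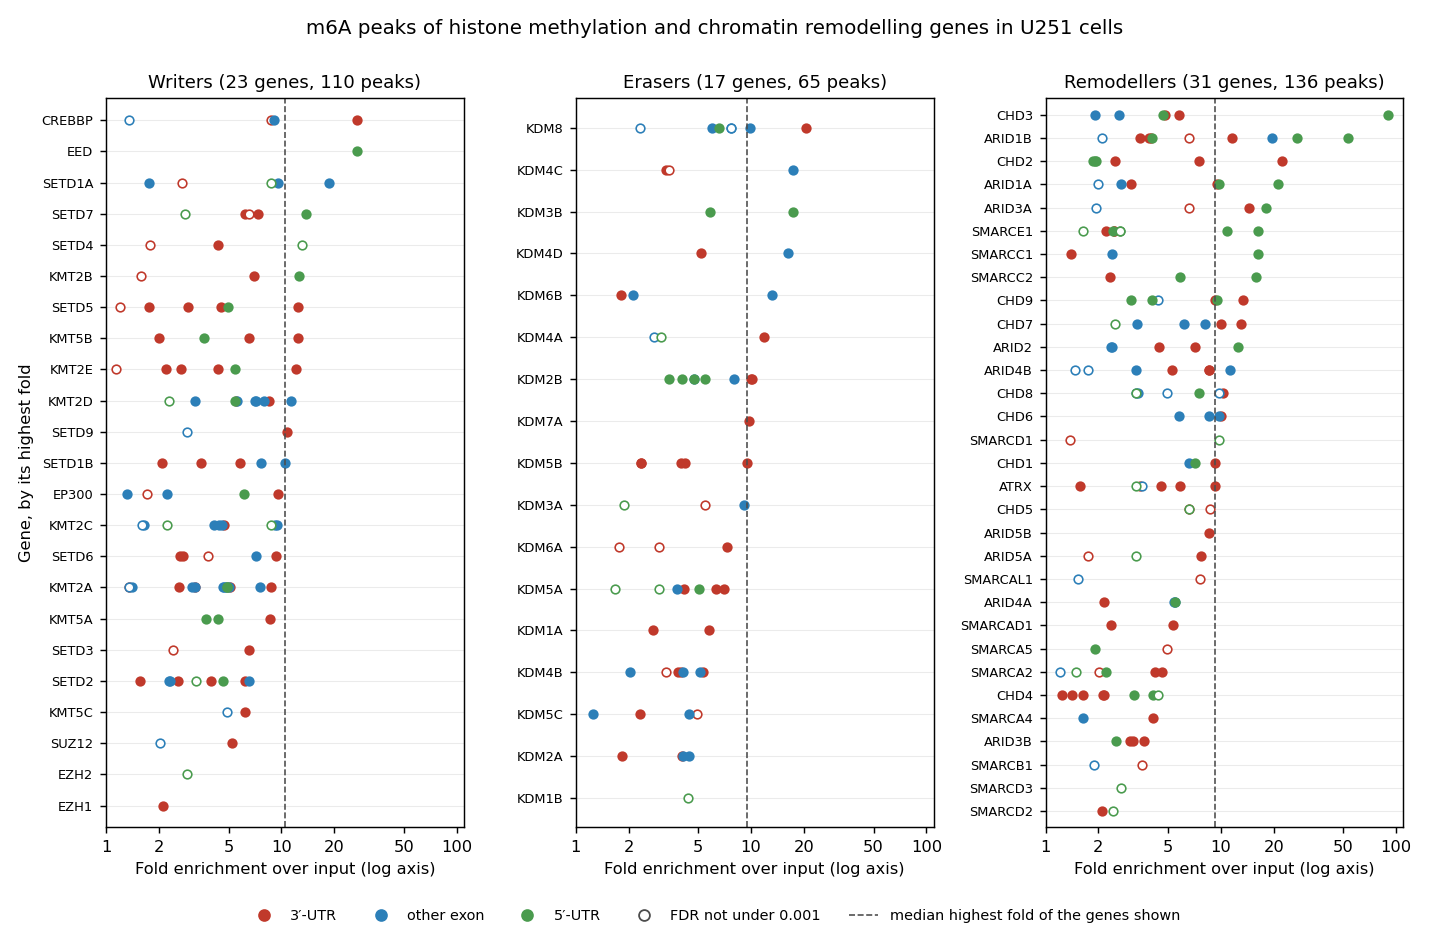
Fold enrichment over input (log axis) of every peak of the 23 writers, 17 erasers and 31 remodellers, with genes ordered by their highest fold, colour for the region and open circles for an FDR not under 0.001. Dashed lines mark the median highest fold of 10.5, 9.49 and 9.21, and only remodellers have peaks above 50-fold, in CHD3 and ARID1B.

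Many folds in the list are whole multiples of about 1.09, such as 6.54, which 2261 rows share. A fold was counted as on a step within the rounding of the listed value, which is 0.005 below 10-fold and 0.05 from there to 100-fold. That tolerance takes in 0.918% of the distance between steps below 10-fold but 9.18% above, so matches at high folds are less certain. Such steps made up 17.0% of the 311 peaks, against 33.5% of all peaks. The share was 12.3% at an FDR under 0.001 and 32.0% otherwise in these genes, against 20.2% and 55.2% in the list. Among the peaks of at least 10-fold, 13 of 38 lay on a step (34.2%), against 65.9% of all such peaks. The sources used here do not say what the step stands for. Folds of at least 10 that lie on a step are named as such below, and the part of the steps in their size was not tested.

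The regions of the peaks were close to those of the whole list, noncoding names included. The 3′-UTR held 46.0% of the peaks (95% Wilson interval 40.5 to 51.5), against 44.1% of all peaks, other exons held 29.6% against 32.3%, and the 5′-UTR held 24.4% against 23.5%. Other exons held 34.5% of the writers' peaks (26.3 to 43.8), 32.3% of the erasers' (22.2 to 44.4) and 24.3% of the remodellers' (17.8 to 32.1). The 5′-UTR held 19.1% (12.8 to 27.4), 20% (12.1 to 31.3) and 30.9% (23.7 to 39.1) of them in the same order of roles, and these intervals overlap. With overlapping rows merged the roles lay closer: the exon shares became 33.7%, 31.7% and 27.3%, and the 5′-UTR shares 18.3%, 18.3% and 26.4%. The peak with the lowest p, 1 per gene, lay in the 3′-UTR in 46 of the 71 genes (64.8%), against 48.6% of all genes, and this share was alike in writers (65.2%), erasers (64.7%) and remodellers (64.5%).

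**Figure D3:**
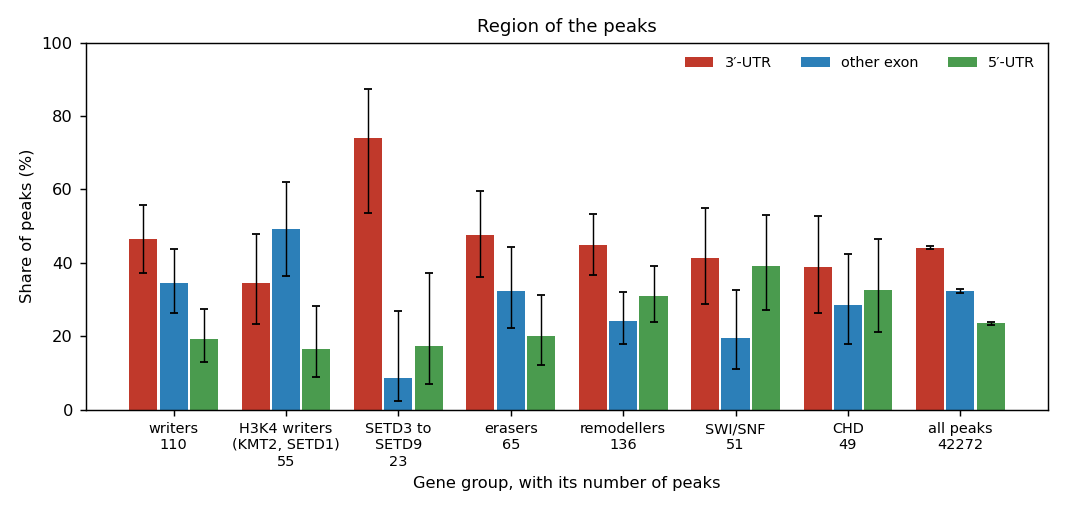
Share of peaks (%) in the 3′-UTR, other exons and the 5′-UTR for the roles, for 4 families within them and for all peaks of the list, with the number of peaks under each name and 95% Wilson intervals as bars. The H3K4 writers have the highest exon share (49.1%), the genes from SETD3 to SETD9 the highest 3′-UTR share (73.9%) and SWI/SNF genes the highest 5′-UTR share (39.2%).

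The region is the label the authors' annotation gave, and it can come from a short transcript of the gene. Of the 311 peaks, 295 overlap the span that RefSeq gives the gene. Of the 143 peaks labelled 3′-UTR, 15 (10.5%) lay before the midpoint of the gene, against 14.01% of all peaks with that label. Of the 76 labelled 5′-UTR, 6 (7.89%) lay beyond it, against 15.4%. Of the 5 peaks labelled 3′-UTR in ATRX, 4 lay between 36.2% and 48.3% of the way along the gene, and a peak of 1681 bases labelled 5′-UTR in ARID2, with 12.5-fold enrichment, lay at 68.6%. By position alone, 34.1% of the peaks had their midpoint in the last 10% of the gene span (29.0 to 39.5), against 31.0% of all peaks, and 17.4% had it in the first 10% (13.6 to 22.0), against 19.6%. The last 10% held 31.8% of the peaks of writers, 41.5% of those of erasers and 32.4% of those of remodellers. The first 10% held 12.7%, 13.8% and 22.8%.

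**Figure D4:**
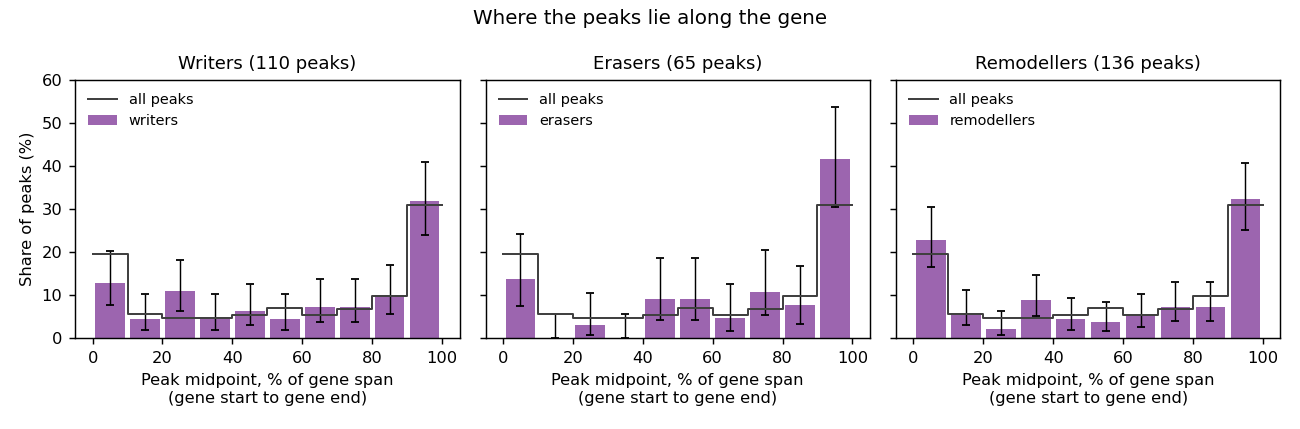
Share of peaks (%) by the position of the peak midpoint along the gene (start to end of the span the list gives, in steps of 10%), for writers, erasers and remodellers (bars, with 95% Wilson intervals) and for all peaks of the list (line). All roles have their highest bar at the end of the gene, and the bar at the start is 22.8% in remodellers, against 12.7% in writers.

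Writers of H3K4 methylation had their largest share of peaks in exons outside the UTRs. The 7 genes KMT2A, KMT2B, KMT2C, KMT2D, KMT2E, SETD1A and SETD1B are, apart from KMT2E, catalytic subunits of COMPASS-type complexes that act at promoters and enhancers. They held 55 peaks, 27 of them in other exons (49.1%, 36.4 to 61.9) and 19 in the 3′-UTR (34.5%, 23.4 to 47.7). With overlapping rows merged, 24 of 50 (48.0%) lay in other exons. In 5 of the 7 genes the peak with the lowest p lay in such an exon, against 12 of all 71 genes, these 7 included. Over the whole list it did so in 4905 of 16701 genes. KMT2D had peaks in exons 11, 30, 33, 40 and 48 of 55. The peak in exon 40 lay at chr12:49030966-49033956, as the list gives positions, covered 2850 bases of exon and had 11.3-fold enrichment at a log10 p of -384. In KMT2C the exon peaks reached 9.49-fold, in exon 14 of 59, and 9.20-fold, over 1949 bases. In KMT2A a peak of 1501 bases in exon 27 of 36 had 7.56-fold enrichment at a log10 p of -287, and 2 more peaks lay in the same exon with 4.86-fold and 1.41-fold. Of the exon peaks of KMT2A, 5 name an exon of another gene whose identifier overlaps KMT2A, and each of these rows shares its bases with another row. SETD1A reached 18.7-fold in exon 13 of 19, over 1317 bases, and SETD1B reached 10.5-fold in exon 5 of 17.

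KMT2B and KMT2E did not share this pattern. The strongest peak of KMT2B lay at its start, labelled 5′-UTR, with 12.7-fold enrichment over 2249 bases at a log10 p of -362. KMT2E, a divergent member with a role in cell-cycle control and haematopoiesis, had 5 of its 6 peaks labelled 3′-UTR. They lay between 62.9% and 98.6% of the way along the gene. One of them had the lowest p of the family, a log10 p of -1580, with 12.2-fold enrichment over 1649 bases. Among exon peaks of writers, uninterrupted blocks of at least 1000 bases were found only in H3K4 genes. The median longest block in exon peaks of writers was 642 bases, against 423 in exon peaks of the 71 genes together and 317.5 in all exon peaks of the list. It was at least 1000 bases in 12 of the 38 exon peaks of writers (31.6%), 2 of 21 in erasers (9.52%) and 2 of 33 in remodellers (6.06%), against 9.99% of all exon peaks. All 12 of the writers lay in KMT2A, KMT2C, KMT2D, SETD1A and SETD1B, and no exon peak of another writer had such a block. The part of exon length in these differences was not tested.

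Other SET-domain genes had most of their peaks under the 3′-UTR label. SETD3, SETD4, SETD5, SETD6, SETD7 and SETD9, several of which methylate proteins other than histones, had 17 of their 23 peaks in the 3′-UTR (73.9%, 53.5 to 87.5), and in all 6 the peak with the lowest p had that label. By position, 9 of the 23 lay in the last 10% of the gene, and the peak of SETD6 with the lowest p, 9.28-fold at a log10 p of -394, lay at 38.2%. SETD5 had 12.4-fold enrichment at a log10 p of -1130, the second lowest p of the family, in a peak of 1229 bases. SETD7 had 6.17-fold in the 3′-UTR at a log10 p of -186, and its highest fold, 13.8, came from a 5′-UTR peak of 361 bases with a log10 p of -9.87. The highest fold of SETD4, 13.1, lay on a step and did not reach an FDR of 0.001. SETD2 had peaks in all 3 regions. Its lowest p came from a peak labelled 3′-UTR with 6.22-fold enrichment at 53.4% of the gene, and 3 peaks in exon 1 of the transcript named had 6.52-fold, 2.31-fold and 2.29-fold. The H4K20 methyltransferase genes KMT5A, KMT5B and KMT5C reached 8.66-fold, 12.4-fold and 6.22-fold, each in the 3′-UTR.

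The PRC2 genes had the fewest peaks of the writers, 5 in 4 genes. EED, which binds trimethylated H3K27 and stimulates the complex, stood apart with a single peak of 27.1-fold at its start, over 631 bases, at a log10 p of -221. SUZ12, the scaffold subunit, had 5.23-fold in the 3′-UTR at a log10 p of -235 and 2.02-fold in its first exon. EZH1 had a single peak of 2.11-fold, the lowest highest fold of all 71 genes, and EZH2 2.90-fold as given above. By highest fold the catalytic subunits were thus the lowest of the complex. The paralogous acetyltransferases CREBBP (CBP) and EP300 (p300), which place acetyl groups and are counted here with the writers, both had their strongest peak in the 3′-UTR over a similar stretch. CREBBP had 27.2-fold over 2340 bases at a log10 p of -263, on a step, and EP300 had 9.53-fold over 2190 bases at a log10 p of -425. The fold was higher in CREBBP and the p lower in EP300. At the start, EP300 had a peak of 6.11-fold over 1230 bases, and CREBBP one of 9.09-fold over 781 bases that the list assigns to exon 1 of 31.

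In erasers the peak with the lowest p was labelled 3′-UTR in 11 of 17 genes, a share like that of the other roles. It lay in another exon in 4 genes and in the 5′-UTR in 2. KDM5B, an H3K4 demethylase, was the only gene with 4 or more peaks that had all of them in 1 region. Its 5 peaks were labelled 3′-UTR, and the one with the lowest p had 9.49-fold over 1441 bases at a log10 p of -816, the lowest p of the erasers. The other 4 had 4.20-fold, 3.97-fold, 2.37-fold and 2.35-fold, and 2 of them lay at 42.4% and 44.0% of the gene. KDM5A, its paralogue, had 7 peaks in all 3 regions and reached 6.97-fold, and KDM5C had 4 and reached 4.90-fold. Both H3K27 demethylases had 3 peaks. KDM6B (JMJD3) had 13.2-fold in exon 10 of 22, over 1980 bases at a log10 p of -390, and 2.12-fold and 1.80-fold elsewhere. KDM6A (UTX) had 7.24-fold in a peak labelled 3′-UTR, over 1589 bases at a log10 p of -137, and 3.00-fold and 1.77-fold elsewhere.

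KDM3A, an H3K9 demethylase, was like KDM6B in that its lowest p lay in an internal exon, exon 10 of 27, with 9.12-fold at a log10 p of -264. KDM3B had 2 peaks, both labelled 5′-UTR. One covered 2216 bases with 5.81-fold at a log10 p of -262, and the other covered 61 bases at the first base of the gene with 17.4-fold, on a step, at a log10 p of -4.15. KDM2A and KDM2B, H3K36 demethylases, had all of their 12 peaks at an FDR under 0.001. KDM2B reached 10.1-fold and 10-fold in 2 overlapping 3′-UTR rows, and KDM2A reached 4.44-fold. KDM8 had the highest fold of the erasers, 20.7, in the 3′-UTR over 1045 bases, on a step, and 7 peaks of which 4 were at an FDR under 0.001. The highest folds of KDM4C (17.4, in an exon the list names for another gene) and KDM4D (16.3), which act on H3K9 methylation, were also on a step, and KDM4A reached 11.8-fold in the 3′-UTR at a log10 p of -22.5. KDM4B had lower folds, up to 5.32, over 7 peaks. KDM1A (LSD1) reached 5.76-fold at a log10 p of -61.0 in a peak labelled 3′-UTR. Its 2 blocks run from chr1:23020147 to 23088058, with the midpoint at 54.0% of the gene.

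Remodellers had 42 of their 136 peaks under the 5′-UTR label, and these include the highest folds of the family. SWI/SNF genes held 51 peaks, 20 of them labelled 5′-UTR (39.2%, 27.0 to 52.9), and the CHD genes held 16 of 49 (32.7%, 21.2 to 46.6). With overlapping rows merged these shares were 13 of 42 (31.0%) and 13 of 44 (29.5%). The highest fold of the gene came from a 5′-UTR peak in 12 of 31 remodellers (17 had it in the 3′-UTR), 5 of 23 writers and 2 of 17 erasers, against 26.0% of all genes. CHD3, a NuRD ATPase, had the highest fold of the family, 89.9, in a peak of 450 bases in 3 blocks near its start at a log10 p of -89.3, which was not on a step. Its other 5 peaks lay between 1.92-fold and 5.79-fold. ARID1B had 53.4-fold and 27.2-fold in 2 overlapping rows at its start, both on a step and at log10 p of -15.6 and -14.2, and 19.6-fold in the exon that follows, over 1350 bases at a log10 p of -76.9 and likewise on a step. ARID1A, its paralogue and like it a DNA-binding subunit of the BAF form of SWI/SNF, had 21.1-fold at its start over 2038 bases at a log10 p of -148. At the other end the paralogues were closer, with 11.6-fold in ARID1B over 2729 bases at a log10 p of -364 and 9.48-fold in ARID1A over 2068 bases at a log10 p of -817.

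The first transcribed bases of genes with high folds at the start are shown to give the RNA that these peaks cover. They were taken from RefSeq (GRCh38.p14), on the transcribed strand and in DNA letters, for the 7 genes with the highest folds among those whose peak covers all of the first 50 bases of a RefSeq transcript, and capitals mark GGAC, a frequent form of the core of m6A sites. The build of the list was not given in the sources used here, but 50 of the 71 genes have an end at the same base in the list as in RefSeq. The windows are ARID1B chr6:156776026-156776055 (plus strand, 53.4-fold), EED chr11:86244753-86244782 (plus, 27.1-fold), ARID1A chr1:26696015-26696044 (plus, 21.1-fold), KDM3B chr5:138352685-138352714 (plus, 17.4-fold), KMT2B chr19:35718003-35718032 (plus, 12.7-fold), CHD1 chr5:98928978-98929007 (minus, 7.16-fold) and EP300 chr22:41092592-41092621 (plus, 6.11-fold).
ARID1B: gtcaaacaaataaccactgctgcagtggaa
EED: attccacagactttcgctccctagcagcgg
ARID1A: ctcctttctccggcagcagaaagcggagag
KDM3B: gaacggcggccgcgggtggtgcggagggag
KMT2B: ctctcacggtgccaagatggcggcggcggc
CHD1: gcctcgcgctctgtcgggaaggggagtgag
EP300: gagaaggaggaGGACagcgccgaggaggaa
Of these only EP300 held the motif in the bases shown, and none of the other 6 held it in the first 50. In all, 93 such start windows of 61 genes were in the table. A peak covered at least 1 base of 28 of them, in 24 genes, and all 50 bases of 19, in 16 genes. The motif, read as the letters GGAC on the transcribed strand, was in 4 of the 28 (14.3%), in 3 of the 19 (15.8%) and in 13 of the 65 without a peak (20%), against 18.9% of all 35116 windows in the table. Most of these peaks extend far beyond the window, so its letters describe only the edge of the peak.

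Among SWI/SNF genes the fold depended on which peak was taken. At the peak with the lowest p, ARID1A, ARID1B and ARID2 had 9.48-fold to 12.5-fold, and SMARC genes 2.09-fold to 4.08-fold apart from SMARCD1, with 9.8-fold in a peak that did not reach an FDR of 0.001. SMARCA4 (BRG1), one of the alternative ATPases, had 4.08-fold in the 3′-UTR at a log10 p of -198 and 1.64-fold elsewhere. SMARCA2 (BRM), the other, had 6 peaks of 1.21-fold to 4.6-fold. Over the 12 SWI/SNF genes the fold of the peak with the lowest p had a median of 3.11, against 11.2 for the highest fold. SMARCE1 shows this gap. Its lowest p, a log10 p of -328, belonged to a 3′-UTR peak of 2.44-fold, whereas its highest fold, 16.3, came from a row labelled 5′-UTR, on a step. The midpoint of that row lies before the start of the gene span in the list. SMARCC1 and SMARCC2, the paired scaffold subunits, had 16.3-fold and 15.8-fold in short 5′-UTR peaks of 270 and 61 bases, of which that of SMARCC1 lay on a step, and 2.38-fold and 2.34-fold at their lowest p. ARID2, which marks the PBAF form, had 12.5-fold at a log10 p of -188. SMARCD2 and SMARCD3 stayed at 2.41-fold and 2.68-fold, in peaks that did not reach an FDR of 0.001.

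**Figure D5:**
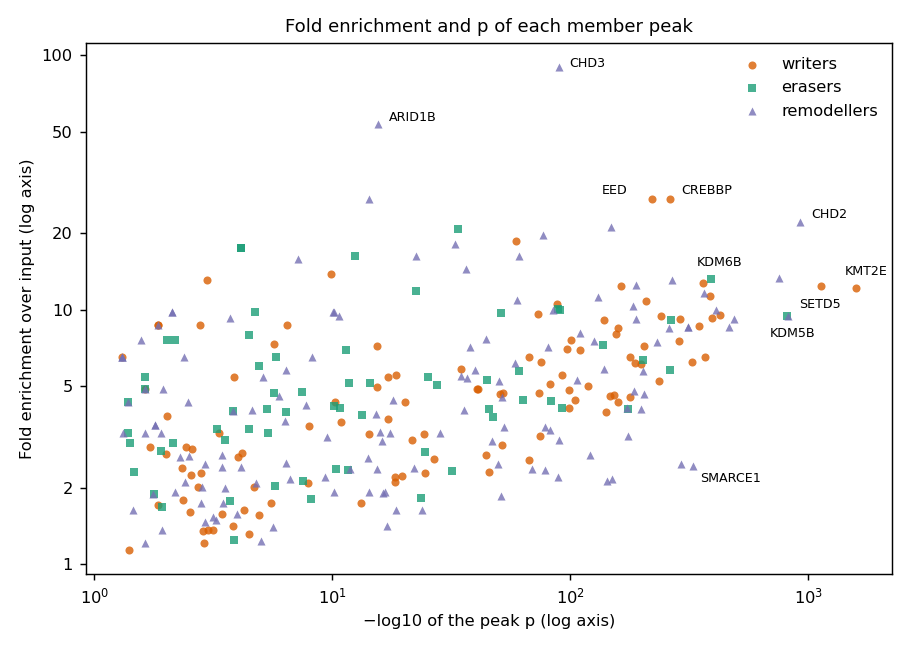
Fold enrichment over input (log axis) against −log10 of the peak p (log axis) for the 311 peaks of writers (circles), erasers (squares) and remodellers (triangles), with 10 peaks named. CHD3 and ARID1B have the highest folds, KMT2E the lowest p, and SMARCE1 a low p at 2.44-fold.

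Among CHD remodellers, 4 genes had a peak at the gene end with a log10 p of -407 or lower, at folds of 9.21 to 22.2. CHD2 had 22.2-fold over 1379 bases at a log10 p of -925, the lowest p of the remodellers. CHD9 had 13.3-fold at a log10 p of -754, CHD1, which binds trimethylated H3K4, 9.21-fold at a log10 p of -486, and CHD6 9.99-fold at a log10 p of -407, each in the 3′-UTR. CHD7, a gene needed for neural crest development, had 13.1-fold in the 3′-UTR at a log10 p of -266, on a step. CHD8 had 7 peaks in all 3 regions, with 10.3-fold in the 3′-UTR. The 8 rows of CHD4 lay between 1.24-fold and 4.36-fold, and its 4.36-fold row did not reach an FDR of 0.001. CHD3 likewise had only 4.78-fold in its peak at the gene end, and CHD5 had no peak at an FDR under 0.05, as given above. The ATPase of ISWI complexes, SMARCA5, had 4.90-fold at most, in a peak that did not reach an FDR of 0.001, and ATRX, which deposits histone H3.3 together with DAXX, had 7 peaks and 9.21-fold at most. The ARID3 to ARID5 genes, DNA-binding proteins with looser ties to remodelling, had 23 peaks in 6 genes. ARID4B, a subunit of SIN3 histone deacetylase complexes, had 7 rows, with 11.2-fold in an exon over 898 bases at a log10 p of -130, and 8.53-fold at a log10 p of -311 in 2 overlapping 3′-UTR rows. ARID4A, its paralogue, had peaks in all 3 regions, up to 5.5-fold. ARID3A reached 18.1-fold at its start and 14.5-fold in the 3′-UTR, and ARID3B 3.66-fold. ARID5B had 8.59-fold in 1 peak of 3090 bases, the longest stretch of exon in a peak labelled 3′-UTR among these genes, at a log10 p of -463.

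The highest fold and the lowest p often named different peaks. Both fell on the same peak in 16 of 23 writers, 11 of 17 erasers and 15 of 31 remodellers (59.2% of the 71 genes), against 74.8% of all genes, many of which have a single peak. The highest-fold peak lay on a step in 3 writers, 5 erasers and 8 remodellers (22.5%), against 46.3% of all genes.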

How the data were processed

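MeRIP-seq of siRNA-transfected U251 cells was given as one peak list of 42272 rows and 24 columns, with no column of per-library values, so depth is unknown and no interval for replicates exists. Of the upstream tools, fastp and HISAT2 stand in the submitters' notes, with no version. Which peak caller, build and annotation were used was not given in the sources used here. Fold enrichment, a ratio that the authors computed for each peak, compares immunoprecipitate with input. The p-value of each peak is a deposited value, and the log10 p and log10 FDR were treated as a deposited score, since some lie far below any stored p-value. An FDR too small to be stored was counted as under every threshold.

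Rows were selected by the gene name in the list. Writers were KMT, SETD, EZH1 and EZH2 genes with EED, SUZ12, EP300 and CREBBP, erasers KDM genes, and remodellers SMARC, CHD, ARID and ATRX genes. Peaks were counted by gene and region, medians and quartiles were taken over peaks or genes, and shares have 95% Wilson intervals. Positions along a gene use the widest span the list gives it, and midpoints outside that span were set to its nearer end. Rows of a gene that share at least 1 exon base were merged in an alternative. Symbols, family sizes and gene lengths come from a RefSeq table (GRCh38.p14), and start sequences from its promoter table. All 71 genes matched by symbol, and 61 had a start window.

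No test was run, because the list holds no replicates. Both the members and the lists were chosen with earlier results of these data known. In each role the text names the 6 genes with the highest fold, the 4 with the lowest, the 6 with the most peaks and the 3 with the lowest p, genes without a peak or without one at an FDR under 0.05, and genes with peaks in all 3 regions or with 4 or more in only 1. Other members, paralogue pairs and the merged shares of families and roles were chosen after their values were seen. The DRACH motif under the peaks needs a genome and was not run. The merging was tested on simulated data, and the role assignment on a short set of gene names with known answers. Python 3.11.15, pandas 2.3.3, NumPy 2.4.6, SciPy 1.17.1 and matplotlib 3.10.9 were used.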

Additional observations from a re-analysis of the deposited data

How the results depend on the processing

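No paired analysis was possible because values per library were not part of the table. Of 51 alternative values for 13 quantities, 41 stayed within the interval of the main value or, for counts, within 1.5 times it. The share of peaks in the 3′-UTR was 64.8% when each gene was represented by its peak with the lowest p (65.2% in writers, 64.7% in erasers, 64.5% in remodellers), against 48.6% of all genes. Among peaks of a single exon block it was 54.8% (63.2% in erasers, 53.3% in remodellers), against 48.6% of all such peaks. With the median fold over the peaks of each gene in place of the highest, the medians were 4.51 in writers, 4.13 in erasers and 4.58 in remodellers, against 5.99 over all genes, so that the genes no longer lay above the list. With folds off the steps only, an alternative chosen after seeing the data, the median highest folds were 9.49, 6.48 and 8.14 for writers, erasers and remodellers, against 5.77 over all genes. Current symbols left 314 peaks under 73 names. Depth could not be weighed, and without values per library no difference between roles has a replicate check.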

Other observations

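Related chromatin genes that the naming rule does not take gave similar counts. Of 102 such genes, 91 had a peak. Their median was 3 peaks per gene and a highest fold of 8.70, and 91.2% of the 91 had a peak at an FDR under 0.001, against 76.7% of all genes. Of their 329 peaks, 38.3% were labelled 3′-UTR, against 44.1% of all peaks. Among 19 partner genes of methyltransferase complexes, 16 had a peak, and the highest folds were in AEBP2 (72.2), a PRC2 cofactor, MEN1 (47.9), which tethers KMT2A, and PAXIP1 (38.1), a subunit of the KMT2C and KMT2D complexes. The peaks of AEBP2 and MEN1 were labelled 5′-UTR, with a log10 p of -427 and of -99.0. Of 32 other writers, 28 had a peak, with PRMT6 (32.7), the H3K36 methyltransferase gene ASH1L (28.3) and KAT6B (25.1) highest. Of 39 other remodelling genes, 35 had a peak, led by BCL7C (57.7), a SWI/SNF subunit, MBD3 (37.0), a NuRD subunit, and PHF10 (30.5), a PBAF subunit. All 12 other erasers and their partners had one, led by JMJD1C (27.2), RIOX1 (14.2) and HDAC2 (13.1). Neither the RIOX1 peak nor the HDAC2 peak of these folds reached an FDR of 0.001, and the peak of HDAC2 with the lowest p had 1.22-fold. Of the highest folds named here, only that of AEBP2 lay off the steps of about 1.09. These lists were described by counts only, and no test was run on them.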
